A study of Mus musculus with 8 samples.

Results

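Transcripts of 10 genes of bone and cartilage, grouped around *Ibsp*, were examined in the hearts of *Dio3+/+* and *Dio3-/-* mouse fetuses. The genes were *Ibsp*, *Spp1*, *Sp7*, *Runx2*, *Dmp1*, *Alpl*, *Acan*, *Matn1*, *Matn3* and *Mmp13*, which are 10 of the 26590 gene symbols in the deposited table and hold 20 of its 51414 rows, each row a transcript. For each gene, the row with the highest average of the genotype means was used. The group was formed with the genotype means of these hearts in view, because *Ibsp* had the lowest log2 ratio of *Dio3-/-* to *Dio3+/+* among the 14657 genes tested, so the members were chosen by their genotype means and coefficients of variation, and their genotype differences are given as a description that supports no direction. Each genotype had 4 hearts, each from an individual fetus on a C57BL/6J background. *Dio3* encodes the type 3 deiodinase, which inactivates thyroid hormone, and *Dio3-/-* fetuses lack it in every tissue from the germ line onward, so that effects in the heart and in the surrounding skeleton or the rest of the fetus are not separated in this model. All 8 sample titles give E13.5. By the age field, hearts 3 and 4 of the *Dio3-/-* group are E18.5, unlike the other 6. The study's results text names E13.5 for the sequenced hearts, and its methods name the day after. If the age field holds, age and genotype cannot be told apart in the genotype summaries.

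Bone forms in the fetus either directly from mesenchyme or on a cartilage template. The transcription factor RUNX2 starts the osteoblast program, SP7 (osterix) acts after it, and osteoblasts then make the tissue-nonspecific alkaline phosphatase (*Alpl*), which frees phosphate for mineral. Bone sialoprotein (*Ibsp*), osteopontin (*Spp1*) and dentin matrix protein 1 (*Dmp1*) belong to the SIBLING family, secreted acidic phosphoproteins that bind mineral and cell-surface integrins and whose genes lie side by side on mouse chromosome 5. Aggrecan (*Acan*) and the matrilins (*Matn1* and *Matn3*) build cartilage matrix, and the collagenase MMP13 degrades it where bone replaces cartilage. The ventricular wall of the fetal heart holds no bone, although cells of the developing valves share transcription factors and matrix genes with cartilage.

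RefSeq start sites (build GRCm38.p6) were found for 9 of the 10 genes (all but *Sp7*), with 12 start sites in all. The 250 bases before the start are shown for *Ibsp*, the gene with the lowest ratio, for *Runx2*, whose product binds DNA at the Runx core, and for *Spp1*, a SIBLING gene on the same chromosome with a mean under 1 RPKM in both genotypes. They lie at chr5:104299037-104299286 (plus strand) for *Ibsp*, chr17:44814628-44814877 (minus strand) for *Runx2* and chr5:104434861-104435110 (plus strand, the first of 2 start sites) for *Spp1*. Capitals mark the Runx core (ACCACA, or TGTGGT on the other strand) and the half-site of nuclear receptors such as the thyroid hormone receptors (AGGTCA, or TGACCT), which do not overlap each other in these windows.
Ibsp: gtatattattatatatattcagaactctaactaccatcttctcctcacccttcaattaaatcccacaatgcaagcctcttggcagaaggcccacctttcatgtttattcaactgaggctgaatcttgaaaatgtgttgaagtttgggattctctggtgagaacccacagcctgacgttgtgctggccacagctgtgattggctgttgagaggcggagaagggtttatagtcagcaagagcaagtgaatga
Runx2: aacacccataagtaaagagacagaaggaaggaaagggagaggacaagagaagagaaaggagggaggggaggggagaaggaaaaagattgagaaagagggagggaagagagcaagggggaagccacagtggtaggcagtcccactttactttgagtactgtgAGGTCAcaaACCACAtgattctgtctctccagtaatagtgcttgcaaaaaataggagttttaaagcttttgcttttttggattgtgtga
Spp1: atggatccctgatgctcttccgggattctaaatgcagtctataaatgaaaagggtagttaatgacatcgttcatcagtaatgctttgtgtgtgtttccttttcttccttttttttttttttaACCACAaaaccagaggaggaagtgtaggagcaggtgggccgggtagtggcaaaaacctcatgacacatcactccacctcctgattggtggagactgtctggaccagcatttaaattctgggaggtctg
The *Ibsp* window held neither motif. The *Runx2* window held the half-site from base -89 to -84 and the Runx core from base -80 to -75, and the *Spp1* window held the Runx core from base -128 to -123. Among the 12 windows, 5 held the Runx core (*Spp1*, *Runx2*, *Dmp1*, *Matn1* and *Mmp13*) and 2 held the half-site (*Runx2* and *Alpl*). Of the 32851 windows in the RefSeq table, 14% held the Runx core and 14% held the half-site. These matches describe letters, not binding.

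The table gives the authors' mean of each genotype in RPKM (read counts corrected for the length of the transcript and the size of the library) and the coefficient of variation, the SD of the 4 hearts divided by their mean, and no values for single hearts. Read totals are not part of it, so the depth of each heart is unknown from these values. The markers of cardiomyocytes were high, from 24.20 RPKM for *Ryr2* to 4778.41 RPKM for *Actc1* in *Dio3+/+* hearts. The targeted gene could not check the genotype labels, because *Dio3* averaged 0.35 RPKM in the *Dio3+/+* group, where its coefficient of variation was 1.23. The *Dio3-/-* group averaged 0.13 RPKM, and its coefficient of variation was 0.76. In the rest of the text, a number in brackets after an RPKM value is this coefficient. The design text describes male fetuses, whereas *Xist* averaged 35.64 RPKM in *Dio3+/+* hearts against 39.97 RPKM in the *Dio3-/-* group, and the Y-linked genes *Ddx3y*, *Eif2s3y*, *Kdm5d* and *Uty* had coefficients of variation from 1.03 to 1.46. Which hearts were male was not determined here. Genotypes were compared by limma from the summaries, with an adjusted *P* value under 0.05 as the threshold, for genes above 1 RPKM in at least 1 genotype. By this test 336 of 14657 genes (2.29%) passed, 280 higher and 56 lower in *Dio3-/-* hearts, and with the genotypes centred on their median log2 ratio 129 were higher and 51 lower. Each log2 ratio is of (mean + 0.5 RPKM), *Dio3-/-* over *Dio3+/+*, which understates the change of low genes. In whole hearts, fewer cells of a type and less RNA per cell cannot be told apart.

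*Ibsp* was expressed in *Dio3+/+* hearts and near zero in *Dio3-/-* hearts, and most of the *Dio3+/+* signal came from a single heart. Its only row averaged 11.25 RPKM (1.54) in *Dio3+/+* hearts against 0.03 RPKM (0.59) in the *Dio3-/-* group. The ratio of the means was 375, and the rounding of the deposited values allows 321 to 450. The log2 ratio was -4.47. The difference of 11.22 RPKM was smaller than the SD of the *Dio3+/+* hearts, 17.3 RPKM. For 4 values that cannot be negative, the coefficient of variation limits the share that the highest value can hold of their sum, and the largest possible value, 2, is reached when 1 heart holds all of it. The highest *Dio3+/+* heart held between 81.0% and 82.9% of the summed *Ibsp* signal, which places it between 36.4 and 37.3 RPKM. The other 3 *Dio3+/+* hearts together held between 7.67 and 8.57 RPKM, so at least 1 of them had 2.56 RPKM or more. No *Dio3-/-* heart had more than 0.0662 RPKM. At least 2 of the 4 *Dio3+/+* hearts were therefore above every *Dio3-/-* heart, while the lowest *Dio3+/+* heart lay anywhere from 0 to 2.62 RPKM, so whether the genotypes overlapped could not be determined.

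**Figure D1:**
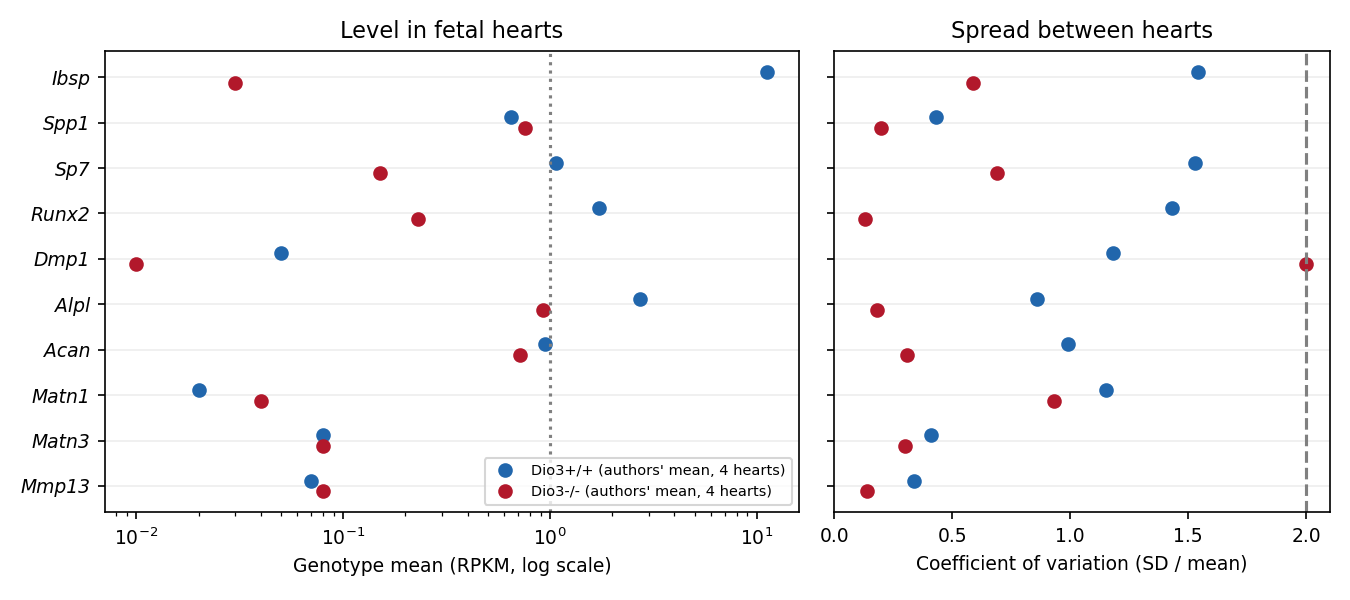
Authors' mean of each genotype in RPKM on a log axis (left, dotted line at 1 RPKM) and coefficient of variation between the 4 hearts of a genotype (right, dashed line at 2, the largest value 4 hearts can give) for the 10 genes. *Ibsp*, *Sp7*, *Runx2* and *Alpl* were above 1 RPKM in *Dio3+/+* hearts only, and the first 3 of these had coefficients of variation of 1.43 to 1.54 there.

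The transcription factors of the osteoblast program showed the same kind of values at a lower level. *Runx2* averaged 1.72 RPKM (1.43) in *Dio3+/+* hearts against 0.23 RPKM (0.13) in the *Dio3-/-* group, a ratio of 7.48 and a log2 ratio of -1.60. Its 7 rows, which share exons and reads, ran from 1.5 to 1.72 RPKM in *Dio3+/+* hearts and from 0.21 to 0.23 RPKM in *Dio3-/-* hearts, with coefficients of variation from 1.42 to 1.44 and from 0.08 to 0.14. The highest *Dio3+/+* heart held 75.6% to 78.8% of the *Runx2* signal, or 5.18 to 5.44 RPKM. No *Dio3-/-* heart was above 0.283 RPKM, and the other 3 *Dio3+/+* hearts averaged at least 0.484 RPKM, so at least 2 *Dio3+/+* hearts were above all *Dio3-/-* hearts. *Sp7* averaged 1.07 RPKM (1.53) in *Dio3+/+* hearts against 0.15 RPKM (0.69) in the *Dio3-/-* group, a ratio of 7.13 and a log2 ratio of -1.27. Its highest *Dio3+/+* heart held 80.5% to 82.6% of the signal, or 3.43 to 3.55 RPKM, against at most 0.317 RPKM in any *Dio3-/-* heart. The other 3 *Dio3+/+* hearts averaged between 0.248 and 0.279 RPKM, within the range open to *Dio3-/-* hearts. For both genes the lowest *Dio3+/+* heart may have been at 0, and overlap between the genotypes could not be determined.

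The other Runx genes had wide spread in *Dio3+/+* hearts too, and their common partner did not. *Runx1*, which acts in blood formation, averaged 3.44 RPKM (1.26) in *Dio3+/+* hearts against 0.90 RPKM (0.39) in the *Dio3-/-* group. *Runx3*, a regulator in neurons and lymphocytes, had 1.52 RPKM (1.46) and 0.13 RPKM (1.21). *Cbfb*, which encodes the subunit that all Runx proteins bind, had 43.36 RPKM (0.17) and 41.11 RPKM (0.05). None of these 3 genes passed by limma (adjusted *P* from 0.205 to 0.756) or by Welch's test, and 2 had an unadjusted *P* value under 0.05 by limma. Those 2, *Runx1* and *Runx3*, passed the filter on low values through the *Dio3+/+* mean alone, so their direction was set by the filter.

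*Alpl* was the member with the second-highest mean. It averaged 2.72 RPKM (0.86) in *Dio3+/+* hearts against 0.93 RPKM (0.18) in the *Dio3-/-* group, a ratio of 2.92 and a log2 ratio of -1.17. The highest *Dio3+/+* heart held between 42.8% and 57.4% of the *Alpl* signal, or 4.65 to 6.26 RPKM. The other 3 averaged at least 1.54 RPKM, and no *Dio3-/-* heart was above 1.19 RPKM, so at least 2 *Dio3+/+* hearts were above all *Dio3-/-* hearts. A larger part of the *Alpl* signal than of the *Ibsp*, *Sp7* and *Runx2* signals therefore lay outside the highest *Dio3+/+* heart.

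**Figure D2:**
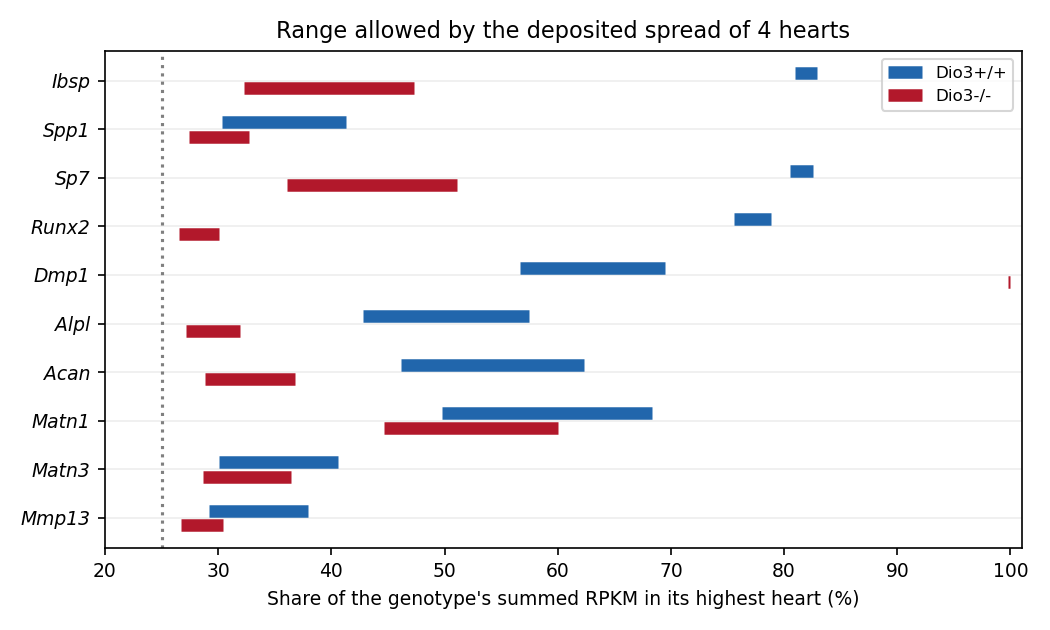
Share of the summed RPKM of a genotype that its highest heart can hold, in percent, given the deposited coefficient of variation of 4 hearts and its rounding. Each bar is the possible range and the dotted line is an equal share. In *Dio3+/+* hearts the bars of *Ibsp*, *Sp7* and *Runx2* start at 75.6% or higher, and those of *Spp1*, *Matn3* and *Mmp13* end at 41.3% or lower.

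Of a list of 27 other osteoblast and mineralization genes, 25 were in the table and 17 were tested. By limma 1 rose (*Ank*) and none fell, 2 had an unadjusted *P* value under 0.05, and by Welch's test none passed. The mean was lower in *Dio3-/-* hearts for 13 of the 17 (76.5%), beside 36.1% of all tested genes, and the median log2 ratio was -0.21, beside 0.04. All 17 were above 1 RPKM in *Dio3+/+* hearts but only 13 in *Dio3-/-* hearts, so the filter set the direction of the rest. The highest levels were those of matrix genes, none of which passed (adjusted *P* from 0.596 to 0.616 by limma). *Col1a1*, a chain of type I collagen of bone and many connective tissues, had 203.93 RPKM (0.42) in *Dio3+/+* hearts against 168.30 RPKM (0.01) in the *Dio3-/-* group, *Col1a2* had 142.71 RPKM (0.47) and 115.75 RPKM (0.03), and *Sparc* (osteonectin) had 451.99 RPKM (0.03) and 435.27 RPKM (0.04). *Ank*, which encodes a transporter that supplies pyrophosphate and so restrains mineral, rose from 13.37 RPKM (0.10) to 20.01 RPKM (0.04), a log2 ratio of 0.56 (adjusted *P* = 0.00597 by limma, and 0.0768 by Welch's test). Among genes picked for their spread after the values were seen, *Phex*, an endopeptidase of osteoblasts and osteocytes, had 1.48 RPKM (1.34) and 0.34 RPKM (0.46). *Ifitm5*, a membrane protein of mineralizing osteoblasts, had 1.48 RPKM (1.18) and 0.50 RPKM (0.39). *Dlx5*, a transcription factor of the osteoblast lineage, had 1.44 RPKM (0.91) and 0.55 RPKM (0.27). *Phex*, *Ifitm5* and *Dlx5* each passed the filter through the *Dio3+/+* mean alone. None of them passed by limma (adjusted *P* from 0.279 to 0.356). Besides *Ank*, the tested genes with a higher *Dio3-/-* mean were *Msx2*, *Sost* and *Enpp1*. *Msx2* had 2.13 RPKM (0.18) and 2.64 RPKM (0.13), *Sost* 2.62 RPKM (0.09) and 2.90 RPKM (0.09), and *Enpp1* 4.29 RPKM (0.20) and 4.51 RPKM (0.01). Osteocalcin, the late product of osteoblasts, was nearly absent, since *Bglap* and *Bglap2* were at or below 0.10 RPKM in both genotypes. *Bglap* and *Bglap2* are near-identical copies, and the authors counted only reads with 1 mapping position.

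Among the remaining SIBLING genes, *Spp1* did not share the values of *Ibsp*. *Dmp1*, *Mepe* and *Dspp* were at or below 0.05 RPKM in both genotypes, too low for such a comparison. *Spp1* averaged 0.65 RPKM (0.43) in *Dio3+/+* hearts against 0.76 RPKM (0.20) in the *Dio3-/-* group, a log2 ratio of 0.13, and its 3 rows ran from 0.62 to 0.65 RPKM and from 0.72 to 0.76 RPKM. The hearts of the genotypes overlapped, since the lowest *Dio3-/-* heart was at most 0.690 RPKM and the highest *Dio3+/+* heart at least 0.782 RPKM. *Dmp1*, made by osteocytes and odontoblasts, had 0.05 RPKM (1.18) in *Dio3+/+* hearts against 0.01 RPKM (2.00) in the *Dio3-/-* group, where 1 heart held at least 99.8% of the signal. *Mepe* had 0.03 RPKM and 0.01 RPKM, and *Dspp* had 0.01 RPKM in both genotypes. In RefSeq the coding genes run in the order *Sparcl1*, *Dspp*, *Dmp1*, *Ibsp*, *Mepe*, *Spp1* and *Pkd2*. The outer neighbours were expressed in both genotypes, with 15.95 RPKM (0.12) and 17.52 RPKM (0.11) for *Sparcl1* and 11.87 RPKM (0.21) and 11.67 RPKM (0.03) for *Pkd2*. Beyond them, *Nudt9* had 17.89 RPKM (0.05) and 18.88 RPKM (0.04), and *Hsd17b11* had 16.68 RPKM (0.06) and 16.19 RPKM (0.06). Of the 7 listed family members and neighbours, 4 were tested. None passed by limma (adjusted *P* from 0.482 to 0.944), none had an unadjusted *P* value under 0.05, and none passed by Welch's test.

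Receptors for osteopontin and bone sialoprotein were abundant in both genotypes. All 9 on the list were tested, 2 rose and none fell by limma, 4 had an unadjusted *P* value under 0.05, and none passed by Welch's test. *Itga9*, the integrin subunit that binds osteopontin, rose from 13.81 RPKM (0.03) to 17.22 RPKM (0.04), a log2 ratio of 0.31 (adjusted *P* = 0.0133 by limma). *Itga8* rose from 7 RPKM (0.12) to 9.60 RPKM (0.05), a log2 ratio of 0.43 (adjusted *P* = 0.0339 by limma, and 0.0585 when both genotypes were centred). *Itgb3*, the partner of the alpha-v subunit in a main receptor of both proteins, had 7.26 RPKM (0.17) and 5.27 RPKM (0.20), a log2 ratio of -0.43 that did not pass (adjusted *P* = 0.152 by limma). The highest levels were those of *Itgb1*, with 202.69 RPKM (0.04) and 210.37 RPKM (0.01), and *Itga5*, with 46.37 RPKM (0.06) and 48.43 RPKM (0.03). *Itgb5* had 40.74 RPKM (0.12) and 37.10 RPKM (0.06), and the hyaluronan and osteopontin receptor *Cd44* had 21.61 RPKM (0.05) and 19.26 RPKM (0.05). Macrophages also make osteopontin, and their markers were present in both genotypes, with a sum of 64.35 RPKM in *Dio3+/+* hearts against 68.25 RPKM in the *Dio3-/-* group over 11 genes, none at 0. Of the 10 macrophage genes tested, *Lyz2* (lysozyme) rose from 13.34 to 18.82 RPKM (adjusted *P* = 0.0214 by limma, and 0.173 by Welch's test), and the coefficients of variation in *Dio3+/+* hearts ran from 0.07 to 0.45. *C1qc*, *C1qb* and *Csf1r* did not pass, with adjusted *P* values of 0.956, 0.948 and 0.846 by limma.

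The cartilage members were below 1 RPKM in both genotypes and were not tested. *Acan* averaged 0.95 RPKM (0.99) in *Dio3+/+* hearts against 0.72 RPKM (0.31) in the *Dio3-/-* group, a log2 ratio of -0.25. The hearts overlapped, since the highest *Dio3+/+* heart was at 1.74 RPKM or above and the lowest at 0.485 RPKM or below, and the highest *Dio3-/-* heart was at 0.824 RPKM or above. *Matn3* had 0.08 RPKM in both genotypes, with coefficients of variation of 0.41 and 0.30, and *Matn1* had 0.02 RPKM (1.15) in *Dio3+/+* hearts against 0.04 RPKM (0.93) in the *Dio3-/-* group. The matrilins not in the group were higher, with 5.95 RPKM (1.27) and 1.86 RPKM (0.11) for *Matn4* and 2.97 RPKM (0.13) and 2.63 RPKM (0.12) for *Matn2*. Of 25 other cartilage genes on the list, 23 were in the table and 16 were tested. By limma 1 rose (*Hapln1*) and none fell, 3 had an unadjusted *P* value under 0.05, and by Welch's test none passed. The mean was lower in *Dio3-/-* hearts for 14 of the 16 (87.5%), beside 36.1% of all tested genes, and the median log2 ratio was -0.28. All 16 were above 1 RPKM in *Dio3+/+* hearts and 15 in *Dio3-/-* hearts.

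The cartilage genes with the highest levels are ones that valve tissue also uses. *Sox9*, the transcription factor of cartilage and of valve mesenchyme, had 31.25 RPKM (0.46) in *Dio3+/+* hearts against 24.17 RPKM (0.07) in the *Dio3-/-* group. *Col2a1*, the main collagen of cartilage, had 15.73 RPKM (0.52) and 8.40 RPKM (0.09), a log2 ratio of -0.87 (adjusted *P* = 0.151 by limma). *Col9a2*, a chain of the type IX collagen that coats type II fibrils, had 7.45 RPKM (0.78) and 5.11 RPKM (0.08). *Hapln1*, a link protein that holds aggrecan or versican on hyaluronan, rose from 23.49 RPKM (0.07) to 29.13 RPKM (0.05), a log2 ratio of 0.31 (adjusted *P* = 0.0392 by limma, 0.0731 when both genotypes were centred and 0.129 by Welch's test). *Col10a1*, the collagen of hypertrophic cartilage, had 0.13 RPKM in both genotypes. On a list of 8 markers of valves and cushions, all tested, the median log2 ratio was -0.11, with *Tbx20* at 158.1 RPKM (0.17) and 200.63 RPKM (0.05) and *Prrx1* at 12.23 RPKM (0.92) and 5.4 RPKM (0.08). None passed by limma (adjusted *P* from 0.125 to 0.903), 1 had an unadjusted *P* value under 0.05 and none passed by Welch's test.

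**Figure D3:**
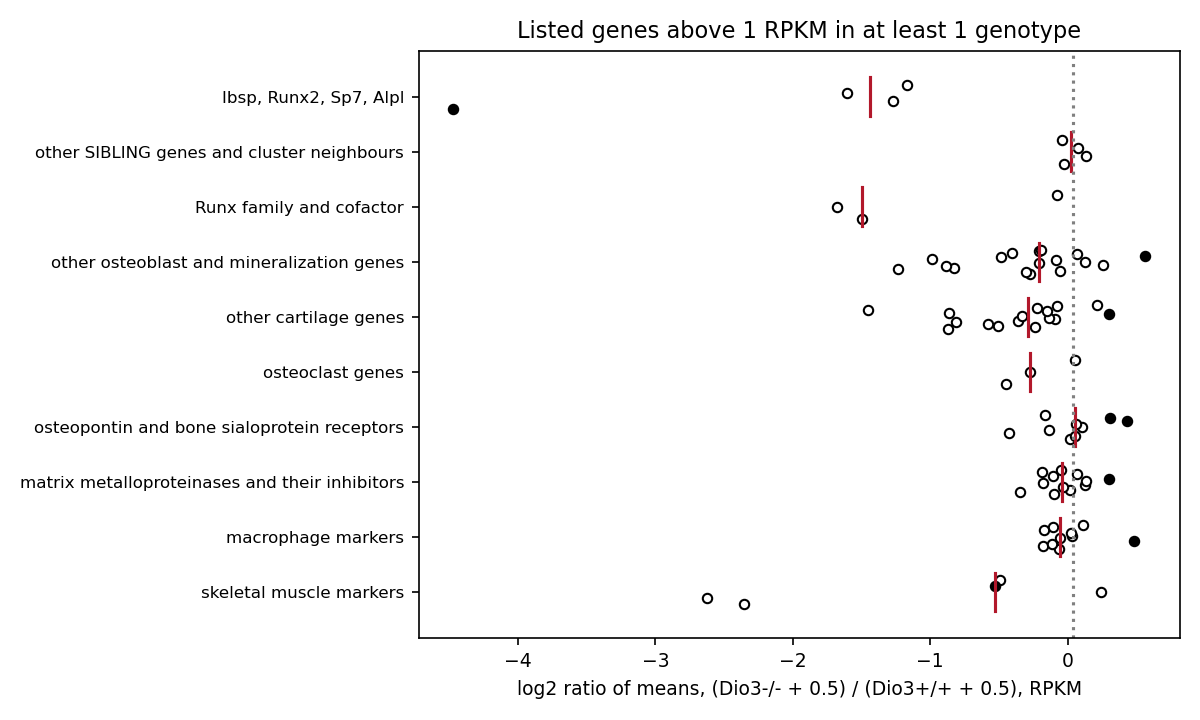
Log2 ratio of the genotype means (mean + 0.5 RPKM, *Dio3-/-* over *Dio3+/+*) for the listed genes above 1 RPKM in at least 1 genotype. Each circle is a gene, filled where the adjusted *P* value by limma was under 0.05, the bar is the median of the list and the dotted line is the median of all tested genes, 0.04. The medians of the osteoblast and cartilage lists are -0.21 and -0.28, and the filled circles there (*Ank* and *Hapln1*) lie above 0.

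*Mmp13* was at 0.07 RPKM (0.34) in *Dio3+/+* hearts against 0.08 RPKM (0.14) in the *Dio3-/-* group. Of 19 other metalloproteinases and inhibitors, 12 were tested, and *Mmp3*, *Mmp10*, *Mmp1a* and *Mmp1b* were listed at 0 in both genotypes. By limma 1 of the 12 rose, 1 had an unadjusted *P* value under 0.05 and none passed by Welch's test. The gene that rose was *Mmp23*, from 10.33 to 12.84 RPKM (adjusted *P* = 0.037 by limma, 0.0699 when both genotypes were centred and 0.132 by Welch's test), and none fell. *Mmp14*, a membrane-bound collagenase, had 68.64 RPKM (0.15) and 66.97 RPKM (0.03), and *Mmp2*, which it activates, had 59.25 RPKM (0.30) and 55.16 RPKM (0.02). *Mmp15* had 59.19 RPKM (0.13) and 64.55 RPKM (0.09), and the inhibitor *Timp3* had 45.80 RPKM (0.09) and 44.27 RPKM (0.03). Of the osteoclast list, 10 of 12 genes were in the table and 3 were tested. *Ctsk* (cathepsin K) had 5.64 RPKM (0.23) and 4.58 RPKM (0.09), *Acp5* (the tartrate-resistant phosphatase) had 4.46 RPKM (0.28) and 3.13 RPKM (0.32), and *Nfatc1*, which endocardium also uses, had 13.85 RPKM (0.06) and 14.43 RPKM (0.04). None of the 3 passed by limma (adjusted *P* from 0.314 to 0.636) or by Welch's test, and none had an unadjusted *P* value under 0.05.

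Across the 10 members, 6 had a lower mean in *Dio3-/-* hearts (*Ibsp*, *Sp7*, *Runx2*, *Dmp1*, *Alpl* and *Acan*), 3 had a higher one (*Spp1*, *Matn1* and *Mmp13*) and *Matn3* was equal at 2 decimals. After centring on the median over all tested rows, a log2 shift of 0.04, *Matn3* and *Mmp13* also fell below 0. The median log2 ratio over the 10 was -0.18, beside 0.01 over all genes. Only 4 members were tested, and each of the 4 passed the filter on low values through its *Dio3+/+* mean alone, so their shared direction was set by the filter. By limma 1 of these 4 was called, *Ibsp*, beside 2.29% of all tested genes in either direction and 0.382% lower in *Dio3-/-* hearts. By Welch's test from the same summaries none was called, beside 0.177%. The coefficient of variation in *Dio3+/+* hearts was above 1 for 3 of the 4 tested members, beside 0.846% of tested genes, and in *Dio3-/-* hearts for none of them, beside 0.321%. This coefficient was higher in *Dio3+/+* than in *Dio3-/-* hearts for 9 of the 10 members, the exception being *Dmp1*, beside 13908 of all 26590 genes. Since the members were chosen on these values and the 4 tested ones passed the filter through the *Dio3+/+* mean, nothing is read from these shares. Whether the highest heart was the same one for each gene cannot be read from the summaries.

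The genes whose values were most like those of *Ibsp* were found over the 2 genotype summaries, as the distance in the log2 ratio and both coefficients of variation, among genes averaging at least 1 RPKM over the genotypes. The 10 nearest were *Agtr2*, *Myh3*, *Myog*, *Mybph*, *Myod1*, *Tmem8c*, *Hoxc5*, *Ebf2*, *C1qtnf3* and mKIAA4211. *Agtr2*, which encodes the type 2 angiotensin receptor, had 7.30 RPKM (1.62) in *Dio3+/+* hearts against 0.14 RPKM (0.58) in the *Dio3-/-* group, at a distance of 0.867. *Myh3*, which encodes the embryonic skeletal myosin heavy chain, had 14.23 RPKM (1.61) and 0.72 RPKM (0.99), at a distance of 0.966. *Myog* and *Myod1*, which encode transcription factors of skeletal muscle, had 9.78 RPKM (1.56) and 1.17 RPKM (0.86), and 4.42 RPKM (1.62) and 0.46 RPKM (1.18). For each of the 10, the highest *Dio3+/+* heart held at least 75.6% of the signal. That share follows from the coefficient of variation by which the 10 were picked, so nothing is read from it. None of the 10 passed by limma, with adjusted *P* values from 0.0653 for *Agtr2* to 0.2 for mKIAA4211. *Alpl* was the only other member ranked, at place 59 of 14465, because *Runx2* and *Sp7* averaged under 1 RPKM.

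**Figure D4:**
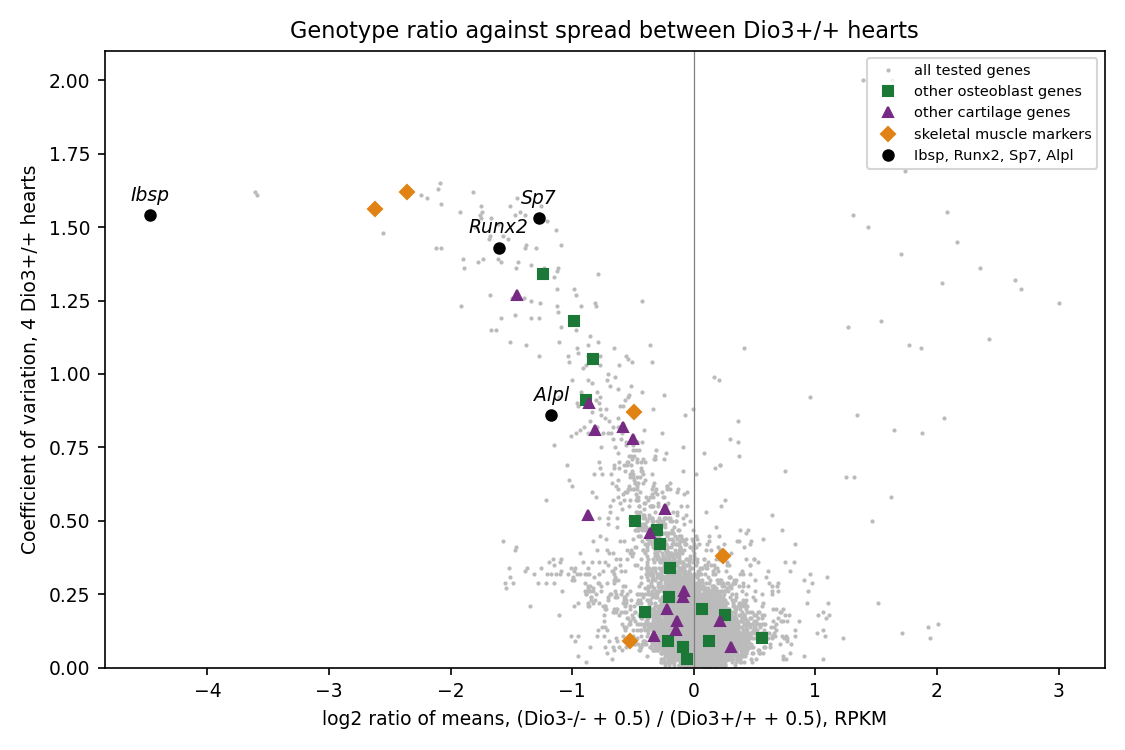
Log2 ratio of the genotype means (mean + 0.5 RPKM, *Dio3-/-* over *Dio3+/+*) against the coefficient of variation between the 4 *Dio3+/+* hearts, for the 14657 tested genes (grey) and the listed groups. *Ibsp* lies at -4.47 and 1.54, and the skeletal muscle markers *Myog* and *Myod1* lie between it and *Runx2* at coefficients of variation of 1.56 and 1.62.

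Markers of skeletal muscle and liver, tissues other than heart, are given beside the bone genes, and of those tested 1 passed by limma (*Tnni2*). On the skeletal muscle list, 7 of 8 genes had a lower mean in *Dio3-/-* hearts, the summed level was 32.80 RPKM in *Dio3+/+* hearts against 14.41 RPKM in the *Dio3-/-* group, and no gene was at 0. The coefficient of variation in *Dio3+/+* hearts was above 1 for 5 of the 8 (*Myod1*, *Myog*, *Myf5*, *Myf6* and *Pax7*, from 1.54 to 1.72). Of the 5 tested, *Tnni2* fell, from 11.09 RPKM (0.09) to 7.55 RPKM (0.10), a log2 ratio of -0.53 (adjusted *P* = 0.0169 by limma, and 0.117 by Welch's test). The part of skeletal muscle or other adjoining tissue in the bone values was not tested, because the summaries do not tie the highest hearts of different genes together. The 8 liver markers had means that were higher in *Dio3-/-* hearts, a sum of 15.28 RPKM in *Dio3+/+* hearts against 106.65 RPKM in the *Dio3-/-* group and coefficients of variation above 1 for 5 genes in *Dio3+/+* and 7 genes in *Dio3-/-* hearts. None of the 8 passed by limma (adjusted *P* from 0.121 to 0.242) or by Welch's test, and all 8 had an unadjusted *P* value under 0.05. Only 5 of the 8 were above 1 RPKM in *Dio3+/+* hearts, against all 8 in *Dio3-/-* hearts. The rest passed the filter through the *Dio3-/-* mean alone, so their direction was set by it. The cardiomyocyte list varied little in *Dio3+/+* hearts, with coefficients of variation from 0.12 to 0.19, and 2 of its 8 genes rose (*Myh6* and *Ryr2*) by limma. All 5 genes on the thyroid hormone response list rose by limma, with coefficients of variation in *Dio3+/+* hearts from 0.03 to 0.19. The study had already reported these 5 as higher in *Dio3-/-* fetal hearts, so their rise is no independent check.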

How the data were processed

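RNA of fetal hearts, 4 per genotype, was depleted of ribosomal RNA and sequenced as single-end reads. The authors checked reads with FastQC, aligned them with NovoAlign (version 2.08), used reads with 1 mapping position, brought samples linearly to the size of the smallest and deposited a genotype mean per transcript. The header names no unit, and the deposited means were taken as RPKM, in which the study's filter is given. The coefficient of variation, deposited as a ratio of SD to mean, was used as given. The genome build is not given in the sources used here. The columns of the authors' own comparison (fold change, q value and flags) were not used.

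For 32703 rows above 1 RPKM in a genotype, log2(mean + 0.5) was compared by limma (version 3.58.1, R 4.3.3), with SDs derived from the coefficients of variation, 6 residual and 3.52 prior degrees of freedom, a mean-variance trend and Benjamini-Hochberg adjustment over all rows. Welch's test, which the study ran on the normalized coverage of its samples, was calculated here from the same summaries. Its counts here are therefore not those of the study. *P* values set the genotype difference against the spread between these hearts, which limma moves toward that of genes of similar level. The limits on the share of the highest heart follow from the coefficient of variation with an SD over n - 1, the form that the largest deposited value of 2 requires. Both steps were run on simulated data. For limma, the simulated coefficient of variation was set at no more than 1 and was the same in both genotypes. The *Dio3+/+* spreads of *Ibsp*, *Sp7* and *Runx2* lay above that limit, so the simulation did not check the test there. The members, and 13 gene lists, were chosen with earlier results of these data known. Named genes were the members, the listed genes with the highest means or passing the test, and the 10 nearest to *Ibsp*. Other genes named in the text were chosen after their values were seen. Of the listed symbols, those not in the table were left out. Python (3.11.15), numpy (2.4.6), pandas (2.3.3) and matplotlib (3.10.9) were used. Alternatives are given with their effects in the closing section.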

Additional observations from a re-analysis of the deposited data

Results flagged for a closer look

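*Dmp1* in *Dio3-/-* hearts stood out because 1 heart lay apart from the other 3. With a mean of 0.01 RPKM and a coefficient of variation of 2.00, the gap from the highest heart to the next, divided by the range of the 4 hearts, was at least 0.998. The level is at the last decimal of the deposited table, and the read counts behind it are unknown. In *Dio3+/+* hearts 2281 of the 51414 rows had a coefficient of variation of 2, so such a value is not particular to *Dmp1*.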

How the results depend on the processing

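The call of *Ibsp* depended on the processing. The number of members called, 1, became 0 with a pseudocount of 1, 0 without an expression filter and 0 by Welch's test, and stayed at 1 under the other 5 alternatives (adjusted *P* from 0.00758 to 0.646 over the 8). The 336 genes called over all became 197 without an expression filter, 26 by Welch's test and 180 with the genotypes centred on the median log2 ratio, which moved the share called higher from 83.3% to 71.7%. The 14 listed genes called became 4 by Welch's test. The number of members with a lower mean was 6, and 8 with centring. The other 40 of 47 alternatives to these results, and 26 of 29 for single members, kept direction and call or stayed close. The causes were not tested. No paired analysis was possible because the table holds no values for single hearts, and leaving out each heart in turn was not run for the same reason. The log2 SD is an approximation that is least reliable at the wide spreads of *Ibsp*, *Sp7* and *Runx2*. Means under 0.10 RPKM are coarse at 2 decimals.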

Other observations

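Wide spread between *Dio3+/+* hearts went mostly with a higher *Dio3+/+* mean. Of the 124 tested genes with a coefficient of variation above 1 in *Dio3+/+* hearts, 105 had a lower mean in *Dio3-/-* hearts and 19 a higher one, and 2 of the 124 passed by limma. A higher mean and a wider spread are not independent where 1 heart is high. Of the 47 tested genes with a coefficient of variation above 1 in *Dio3-/-* hearts, 23 had a lower and 24 a higher mean there, and 33 of the 47 were also above 1 in *Dio3+/+* hearts. Over all tested genes the median coefficient of variation was 0.090 in *Dio3+/+* and 0.060 in *Dio3-/-* hearts.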
